A study of Homo sapiens with 6 samples.

Results

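The ovarian cancer cell lines ES-2 and OVCAR-3 were each transfected with miR-blank, the control, or with miR-135a-3p, and this account follows the genes whose signals moved alike in both lines and those that parted. Its members are the 4 arrays titled for ES-2 and OVCAR-3, of 6 arrays in the series. The remaining 2 arrays, from SKOV-3, one more ovarian cancer line with the same pair of transfections, serve only as a comparison. ES-2 is known as a line from a clear cell carcinoma and OVCAR-3 as one from a serous adenocarcinoma, and the labels give 1 array per line and transfection. The form in which miR-135a-3p was introduced, its dose and the time of harvest are not given in the sources used here. Total RNA came from an RNeasy column and was biotin-labelled through a whole-transcript kit, per the labels' protocols.

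The comparison was miR-135a-3p minus miR-blank with the cell line as a block, so that 2 arrays stood on each side. Of 53617 probe sets, 16098 carried 1 gene symbol, and for each of 14884 symbols the brightest probe set on average stood for the gene. A mean log2 signal of at least 5 over the 4 arrays was required, which left 8573 genes, 7875 of them protein-coding. The median signal of a whole array lay between 4.16 and 4.23, and with no detection calls in the table a signal near that level could not be told from background. The 2 arrays of ES-2 correlated at 0.987 over all probe sets and those of OVCAR-3 at 0.984, against 0.943 and 0.944 between the lines. Keratin 18, a filament protein of simple epithelia, was high in both lines, at 10.14 to 10.47. Vimentin, a mesenchymal filament protein, lay at 10.73 and 10.85 in ES-2 and at 5.08 and 5.54 in OVCAR-3. The epithelial adhesion molecule EPCAM was at 3.93 to 4.32 on the 4 arrays, at or near the array medians, so this defining epithelial marker was not clearly seen. The summed log2 level of 11 epithelial and Mullerian markers was 62.5 to 64.8 on the 4 arrays, and 66.7 and 67.6 in SKOV-3. Above the array median were 8 and 10 of the 11 in ES-2 and 8 and 9 in OVCAR-3. Of the 11, CLDN7 was high in OVCAR-3, at 9.24 and 8.97, and lay at 4.87 and 5.26 in ES-2. KRT7 was at 6.75 and 6.37 in ES-2 and at 3.82 and 4.85 in OVCAR-3. PAX8, 1 of these markers, lay near the median, at 4.17 and 4.80 in ES-2 and 4.33 and 4.12 in OVCAR-3. In SKOV-3 it was at 8.80 and 8.12. Of 8 leukocyte markers 5 had a probe set, and CD14 and LYZ were below the array median on all 6 arrays. CD68, CSF1R and TYROBP were above it on all 6, with CD68, a lysosomal protein, at 7.29 to 10.40 on the 4 arrays.

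A microRNA is cut from a hairpin RNA, and either arm of the hairpin can be loaded into an Argonaute protein as the mature strand. The loaded strand pairs with messenger RNAs mainly through its seed, bases 2 to 8 from the 5′ end, and the paired messages are repressed and often degraded. In the miR-135 family the 5p arms are the usual mature strands. The 3p arms are the other product of the same hairpins.

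The mature strands are shown because the seed is what a transfected microRNA brings into the cell. Sequences are RefSeq's for GRCh38.p14, 5′ to 3′, with the seed in capitals.
hsa-miR-135a-3p: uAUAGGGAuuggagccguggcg
hsa-miR-135a-2-3p: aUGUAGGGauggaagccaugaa
hsa-miR-135b-3p: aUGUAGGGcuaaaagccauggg
hsa-miR-135a-5p: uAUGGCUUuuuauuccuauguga
The seed of hsa-miR-135a-3p belonged to this strand alone among the 2370 mature strands of the table. The 3p arms of the sister hairpins, hsa-miR-135a-2-3p and hsa-miR-135b-3p, shared a seed with each other and not with hsa-miR-135a-3p.

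The hairpin of MIR135A1 is shown with its 3p arm in capitals, since the array carries a probe set for this gene. It lies on the minus strand at chr3:52294219-52294308 (GRCh38.p14), inside the span of GLYCTK, a gene for glycerate kinase.
MIR135A1 hairpin: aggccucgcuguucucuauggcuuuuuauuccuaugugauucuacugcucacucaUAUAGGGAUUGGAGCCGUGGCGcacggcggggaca

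The probe set of MIR135A1 was the check on the transfection. Its log2 signal was 1.75 with miR-blank and 12.57 with miR-135a-3p in ES-2, and 2.26 and 12.20 in OVCAR-3. The blank arrays were far below the array medians and the transfected arrays near the top of the scale, with no overlap, so the gene passed the filter only through the transfected side. The mean difference of the signals was 10.38 ± 0.63 (SD, n = 2 lines). As the gene passed by that side alone, its call in the limma test over 8573 genes is no independent support. Since the blank signals lay under the level that can be told from background, only a bound holds for the change: with the blank arrays raised to their medians the difference was 8.19, at least 291-fold higher. In SKOV-3 it went from 2.07 to 11.58. The probe sets of the sister hairpins, MIR135A2 and MIR135B, stayed between 1.75 and 3.19 on the 4 arrays. GLYCTK, whose span holds the hairpin, did not go with it: the GLYCTK signal was 5.72 and 5.40 in ES-2 and 5.20 and 4.90 in OVCAR-3, blank first.

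Beside MIR135A1, 3 genes passed the test, and all 3 were lower with miR-135a-3p. They were EDA2R, EMP2 and MID1, a tumour necrosis factor family receptor, a four-transmembrane protein and a microtubule-bound ubiquitin ligase. The test thus called 0.035% of the 8573 genes as lower and 0.0117%, MIR135A1 alone, as higher (limma, Benjamini-Hochberg adjusted p under 0.05, two-sided). An unadjusted p under 0.05 was reached by 592 genes, of which 207 were higher and 385 lower. Each gene had 1 residual degree of freedom, so these calls lean on the spread that limma borrows from all genes: without this moderation limma called 0 genes, with 450 at an unadjusted p under 0.05. An exact paired permutation test of 2 pairs cannot go below a p of 0.5. Nothing says how many cultures lie behind an array, so the p-values measure only the spread between these arrays.

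EDA2R is an X-linked receptor of the tumour necrosis factor receptor superfamily that binds the A2 form of ectodysplasin, and it is a known transcriptional target of p53. Its log2 signal was 6.65 with miR-blank and 4.34 with miR-135a-3p in ES-2, and 6.81 and 5.15 in OVCAR-3. Both blank arrays lay above both transfected arrays. In ES-2 the transfected array came down to the level of the array median. The mean difference was -1.99 ± 0.46 (SD, n = 2 lines), a signal at least 3.97-fold lower given that level, with a standard error of 0.18 and a limma adjusted p of 0.00949. In SKOV-3 the receptor was already low, at 4.53 with miR-blank and 4.40 with miR-135a-3p. The difference from the SKOV-3 effect was -1.86 ± 0.31 (SE, adjusted p = 0.0242, limma over 6 arrays), and the part of the low starting level in it was not tested.

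EMP2, epithelial membrane protein 2, belongs to the GAS3/PMP22 family and is known to act on integrin trafficking at the cell surface. The log2 signal was 8.41 with miR-blank and 6.94 with miR-135a-3p in ES-2, and 6.75 and 5.16 in OVCAR-3. Within each line the transfected array was lower. Across lines the groups overlapped, because ES-2 with miR-135a-3p was above OVCAR-3 with miR-blank. The mean difference was -1.53 ± 0.08 (SD, n = 2 lines), a 2.89-fold lower signal, with a standard error of 0.14 and a limma adjusted p of 0.00949. A second EMP2 probe set, with a mean signal of 4.84, gave differences of -1.40 and -1.62. SKOV-3 carried EMP2 at 7.27 and 7.25, and the effect in ES-2 and OVCAR-3 differed from that in SKOV-3 by -1.51.

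MID1, the midline 1 protein, is an X-linked ubiquitin ligase of the TRIM family that binds microtubules and marks the catalytic subunit of phosphatase PP2A for degradation. Its log2 signal was 8.25 and 7.09 in ES-2 and 5.21 and 3.87 in OVCAR-3, miR-blank before miR-135a-3p. The lines differed by about 3 log2 units, and both fell. The last OVCAR-3 value lay below the array median, where a signal could not be told from background. The mean difference of the signals was -1.25 ± 0.13 (SD, n = 2 lines), with a standard error of 0.14 and a limma adjusted p of 0.0388. With that array raised to its median the difference was -1.07, at least 2.10-fold lower, and the limma adjusted p was 0.0753. SKOV-3 went the other way, from 6.56 to 7.14, and the effects differed by -1.83. With no filter on signal, or after a further quantile normalization, MID1 missed the threshold too, at limma adjusted p of 0.0902 and 0.0564. When all 19528 probe sets past the filter were tested together, EDA2R, EMP2 and MID1 all missed it, at limma adjusted p of 0.214, 0.214 and 0.260.

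**Figure D1:**
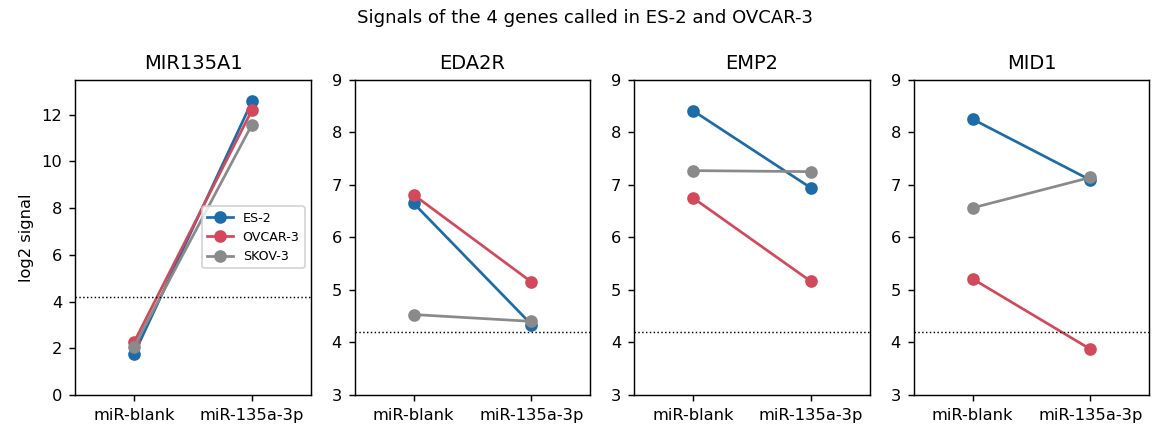
Log2 signal of MIR135A1, EDA2R, EMP2 and MID1 on the 6 arrays, with 1 line per cell line joining miR-blank to miR-135a-3p and a dotted line at the median signal of an array. In ES-2 and OVCAR-3 the 3 protein-coding genes have differences of -1.16 to -2.31, while SKOV-3 is level for EDA2R and EMP2 and goes up by 0.59 for MID1; the MIR135A1 panel has its own scale.

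The relatives of these 3 genes did not pass the test. Of 26 listed receptors of the tumour necrosis factor superfamily, 5 had a named probe set and 3 passed the filter: EDA2R, and NGFR and RELT with differences between -0.20 and 0.08. EDAR, the receptor for the A1 form of ectodysplasin, did not pass the filter. Of 12 tested genes that carry signals from these receptors, 1 was higher in both lines, 4 were lower in both and 7 were opposite. MAP3K14, the NF-kB inducing kinase, differed by -0.43 in ES-2 and -0.11 in OVCAR-3, and CHUK, a kinase of the IKK complex, by -0.26 and -0.17. In the EMP2 family EMP1 and EMP3 were lower in both lines too, by -0.09 and -0.35 for EMP1 and by -0.12 and -0.27 for EMP3, ES-2 first. Over all genes tested 32.4% were lower in both. TMEM47, also listed in this family, did not pass the filter and differed by -0.79 and 0.05. MID2, the close homologue of MID1, was higher in both lines, at 4.42 and 4.78 in ES-2 and 6.43 and 7.30 in OVCAR-3. SKOV-3 had it at 6.79 and 7.28. Its limma p was 0.00532, or 0.667 after adjustment. IGBP1, the alpha4 protein that joins MID1 to PP2A, differed by -0.11 and -0.09.

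The promoters of the 3 lower genes are shown because the genes moved together in both lines, and a reader may want to set them side by side. Each window runs from 250 bases before to 50 after the most upstream start that RefSeq lists (GRCh38.p14), all on the minus strand. Capitals mark the GC box, GGGCGG on either strand. EDA2R lies at chrX:66639220-66639519, EMP2 at chr16:10580549-10580848 and MID1 at chrX:10833634-10833933.
EDA2R promoter: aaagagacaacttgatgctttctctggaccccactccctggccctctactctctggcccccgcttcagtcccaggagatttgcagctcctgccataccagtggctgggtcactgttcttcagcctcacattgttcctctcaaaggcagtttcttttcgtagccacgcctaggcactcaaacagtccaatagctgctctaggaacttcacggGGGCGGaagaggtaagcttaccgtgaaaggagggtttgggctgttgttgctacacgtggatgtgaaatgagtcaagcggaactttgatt
EMP2 promoter: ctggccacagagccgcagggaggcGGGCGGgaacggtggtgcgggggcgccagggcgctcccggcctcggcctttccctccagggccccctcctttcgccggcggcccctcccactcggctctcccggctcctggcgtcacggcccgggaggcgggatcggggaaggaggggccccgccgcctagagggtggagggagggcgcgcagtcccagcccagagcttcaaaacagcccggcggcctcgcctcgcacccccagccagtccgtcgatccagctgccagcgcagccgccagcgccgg
MID1 promoter: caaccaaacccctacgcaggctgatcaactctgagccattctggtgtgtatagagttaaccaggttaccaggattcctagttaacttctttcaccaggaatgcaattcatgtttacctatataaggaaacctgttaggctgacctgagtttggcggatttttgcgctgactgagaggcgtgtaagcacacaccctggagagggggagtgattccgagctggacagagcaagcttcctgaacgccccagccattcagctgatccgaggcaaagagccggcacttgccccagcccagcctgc
EMP2 had a GC content of 77.0% in its window, against 52.3% in those of EDA2R and MID1 and a median of 58.3% over 27305 genes of the promoter table. The windows of EDA2R and EMP2 held 1 GC box each and that of MID1 held 0, and 44.5% of all windows held at least 1. The EDA2R window also held 1 CCAAT box (CCAAT, in 35.7% of all windows), 1 E-box (CACGTG, in 7.41%) and 1 AP-1 site (TGANTCA, in 7.72%), searched on both strands. Each pattern was searched by itself, and overlapping matches of the same pattern were not counted separately. The windows of EMP2 and MID1 held none of these letters, nor TATAAA or TGACGTCA. A match of letters is a description of the window and not a bound site.

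Beyond the called genes, direction was shared a little more often than not. Of the 8573 genes, 4643 (54.2%) moved the same way in both lines, 1863 higher and 2780 lower, and 3918 moved in opposite ways. The split of the shared genes depended on scaling: 40.1% of them were higher in the deposited values, 30.1% after the array medians were made equal and 50.9% after a further quantile normalization. The shift behind this is small, since the median of the mean difference over all genes was -0.03 as deposited and stayed between -0.06 and 0.00 under these scalings. Across 8566 genes, without MIR135A1 and the GAGE genes, the differences of the lines correlated at a Pearson coefficient of 0.0875 and a Spearman coefficient of 0.114. These are values across genes, which are not replicates, and the lines share no array. Of 278 genes at least 1.5-fold different in ES-2, 148 (53.2%) had the same sign in OVCAR-3, and of 320 in OVCAR-3, 186 (58.1%) had the same sign in ES-2. A large difference in one line thus told little about the sign in the other.

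A set of 22 genes differed by 1.5-fold or more with a shared sign, which is 0.257% of the genes tested. Of these, 9 were higher and 13 lower. The 9 were 5 protein-coding genes of other kinds, 3 near-identical GAGE genes and MIR135A1, and the 13 were 11 protein-coding genes and 2 long non-coding RNAs. At 1.25-fold the set held 239 genes, 72 higher and 167 lower, and at 2-fold it held 4, MIR135A1 with EDA2R, EMP2 and MID1. TMEM80 stood just inside the limit, at -0.59 and -0.66, and TMEM145 just outside, at -0.58 and -0.72. By mean log2 signal 11 of them lay between 5 and 6, 9 between 6 and 7, and only 1 each in the 2 brighter classes, although those hold 1804 and 1988 genes. Because the genes were ranked by these same differences, their sizes below are a description.

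**Figure D2:**
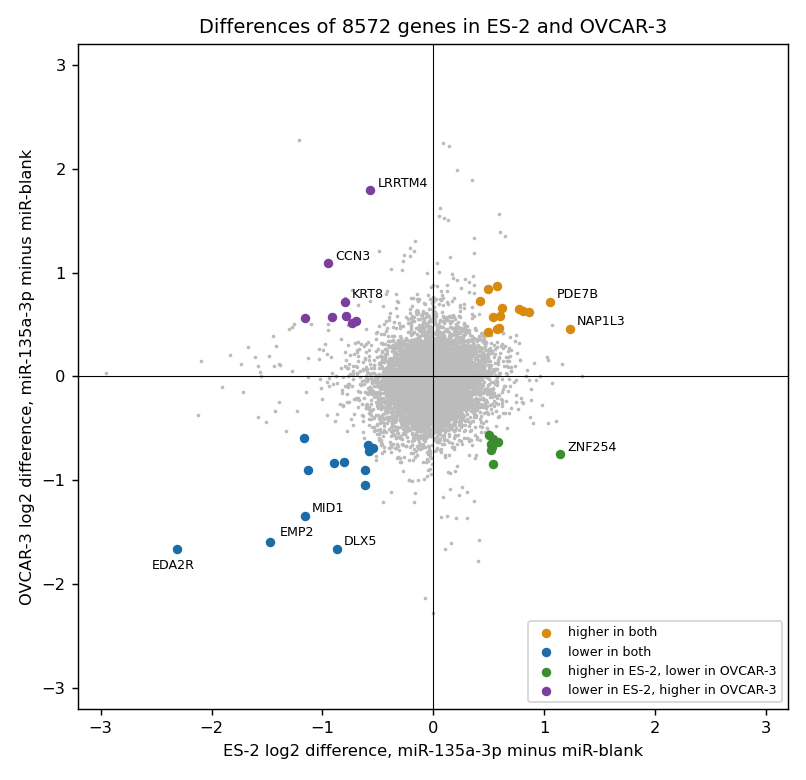
Log2 difference, miR-135a-3p minus miR-blank, in ES-2 (horizontal) and OVCAR-3 (vertical) for the 8573 genes tested except MIR135A1, which lies outside the plot at 10.82 and 9.94. Coloured points mark 14 genes shared upward, 14 shared downward and those that part most; EDA2R, EMP2 and MID1 stand at the lower left, away from a nearly round cloud.

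Among the lower genes after EDA2R, EMP2 and MID1 came transcription factors, scaffolds and a hair keratin. None of the 11 further lower genes named here passed the test, with limma adjusted p from 0.159 to 0.592. KRT31, a hair keratin, had log2 signals of 5.43 and 4.29 in ES-2 and 5.63 and 4.72 in OVCAR-3, blank first, so that both transfected arrays were below both blank arrays. DLX5, a homeobox factor of bone and craniofacial development, went from 5.71 to 4.83 and from 6.34 to 4.68. Its transfected arrays were also the lower pair, with differences of -0.87 and -1.66.

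IQGAP2, a scaffold that binds Rac1 and Cdc42, was at 4.83 and 3.93 in ES-2, near the array median, and at 7.18 and 6.36 in OVCAR-3. KCTD12, an auxiliary subunit of GABA-B receptors, was at 8.01 and 7.21 in ES-2 and 5.24 and 4.42 in OVCAR-3. The differences of these 2 genes agreed between the lines to within 0.07, and the lines' levels did not overlap. KCTD12 passed the test when only genes with a mean of at least 6 were tested (limma adjusted p = 0.0307).

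TBX1, a T-box factor of pharyngeal development, was at 5.36 and 4.19 in ES-2 and at 7.22 and 6.62 in OVCAR-3. ZNF33B, a zinc finger gene, went from 5.38 to 4.76 and from 5.83 to 4.79. TMEM80 and TMEM145, 2 transmembrane proteins, differed by -0.59 and -0.66 and by -0.58 and -0.72, ES-2 first. GPR63, an orphan G protein-coupled receptor, differed by -0.56 and -0.69.

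EGR1 and SPRY2 are both known to be induced by growth factors. EGR1, an immediate early transcription factor, was at 9.5 and 8.88 in ES-2 and 10.38 and 9.48 in OVCAR-3, and its second probe set gave differences of -0.60 and -0.84. SPRY2, a feedback inhibitor of receptor tyrosine kinase signalling to ERK, was at 9.02 and 8.48 and at 9.10 and 8.41. Both transfected SPRY2 arrays lay below both blank arrays. These 2 were the brightest of the 14 lower genes. EGR1 was lower in SKOV-3 too, from 11.70 to 9.74, where SPRY2 was low and went from 4.96 to 5.44.

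The genes that were higher in both lines had smaller differences, and none but MIR135A1 passed the test. The 14 named here had limma adjusted p from 0.331 to 0.677. PDE7B, a phosphodiesterase that degrades cyclic AMP, had log2 signals of 6.66 and 7.71 in ES-2 and 4.07 and 4.79 in OVCAR-3. Its OVCAR-3 blank value lay just under the array median, and the levels of the lines did not overlap. ZC3H6, a CCCH zinc finger protein, went from 7.12 to 7.89 and from 3.91 to 4.56. ENC1, an actin-binding kelch protein, went from 7.27 to 8.07 and from 3.79 to 4.42. The OVCAR-3 blank values of ZC3H6 and ENC1 lay below the array median of 4.19 as well. A signal there could not be told from background, so the size of their rise in OVCAR-3 is uncertain.

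TEX19, a germline gene, was at 4.79 and 5.65 in ES-2 and 4.90 and 5.52 in OVCAR-3, with both transfected arrays above both blank arrays. GDF15, a stress-induced cytokine of the TGF-beta superfamily and a p53 target, was at 5.51 and 6.13 and at 7.31 and 7.97. Its differences of 0.62 and 0.66 were among the most alike of the set. GATA6, a zinc finger factor of endoderm and ovarian cells, was at 7.64 and 8.13 in ES-2 and 4.49 and 5.33 in OVCAR-3. NAP1L3, an X-linked nucleosome assembly protein, was at 4.08 and 5.31 and at 7.03 and 7.49, so its ES-2 blank array lay just under the array median.

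The other 7 lay close together, with differences between 0.42 and 0.87. They were the zinc finger genes ZNF585A and ZNF100, the kinesin adaptor KIFAP3, the neuronal filament gene PRPH, the synaptic tetraspan gene LHFPL4, PNMA8B, and STH, a small gene inside the tau locus. For KIFAP3, PNMA8B and STH a second, dimmer probe set was not higher in both lines. It gave -0.01 and -0.13 for KIFAP3, -0.18 and -0.06 for PNMA8B and 0.20 and -0.14 for STH.

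**Figure D3:**
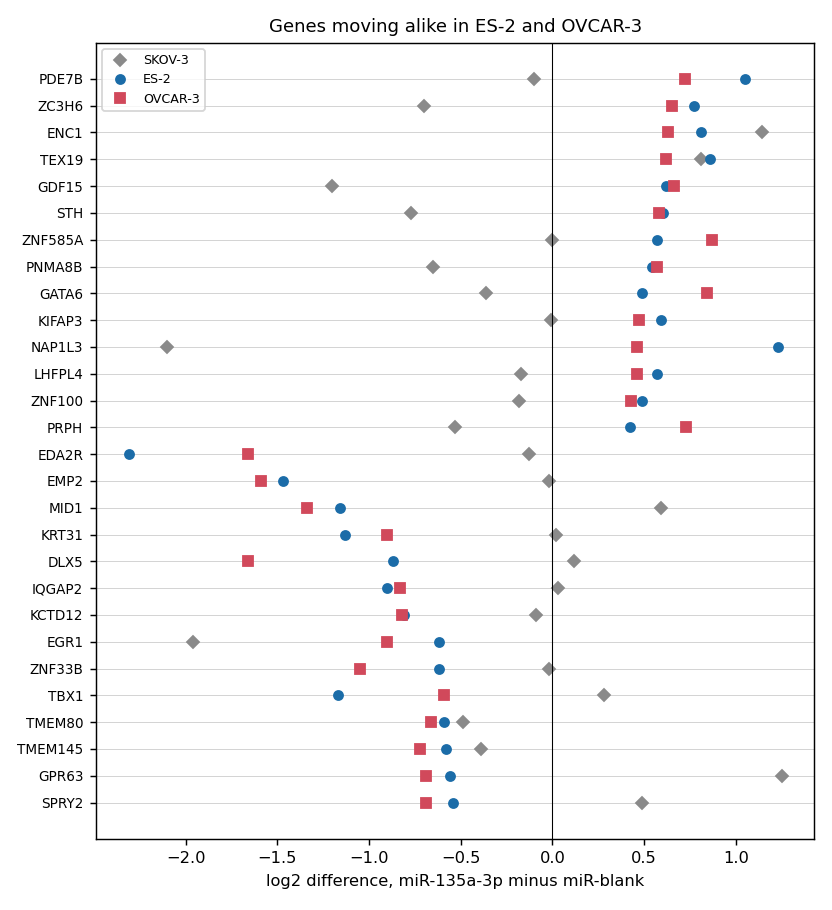
Log2 difference, miR-135a-3p minus miR-blank, by cell line, for 14 protein-coding genes shared upward and 14 shared downward with the largest differences. ES-2 and OVCAR-3 lie on the same side of 0 by the choice of the genes; SKOV-3 lies on that side for ENC1 and TEX19 among the higher genes and is at 0 for ZNF585A, and it lies from -1.96 for EGR1 to 1.25 for GPR63 among the lower genes.

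The promoters of the shared genes were searched for the same patterns. The table held 12 of the 14 higher and 13 of the 14 lower genes, and TEX19, ENC1 and DLX5 had no entry. A GC box was in 8 of the 12 higher and 7 of the 13 lower windows, and in 44.5% of all windows. A CCAAT box was in 6 of the 12 higher and 2 of the 13 lower windows, and in 35.7% of all. TATAAA was in 2 and 1 windows, and in 12.0% of all.

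SKOV-3 did not follow the shared direction for most of these genes. Of 68 genes at least 1.25-fold higher in both lines, without the GAGE genes and MIR135A1, 21 were higher in SKOV-3 as well. Of 167 that were at least 1.25-fold lower, 62 were lower in SKOV-3. Over all genes that moved alike by any amount the shares were 43.2% of the 1863 higher and 41.4% of the 2780 lower. The median SKOV-3 difference was -0.17 over the 68 and 0.14 over the 167. The SKOV-3 arrays took no part in the choice of the genes.

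The test of the difference between the effect in ES-2 and OVCAR-3 and that in SKOV-3 called 190 genes, 2.22% of those tested (limma over 6 arrays, 1 SKOV-3 array per side). The spread in this test comes from ES-2 and OVCAR-3 alone, and SKOV-3 is assumed to vary like them, although its differences were wider, with an SD over genes of 0.470 against 0.294 and 0.296. The test also uses again the ES-2 and OVCAR-3 values by which the genes were ranked, so its p-values are no independent support for those genes. Besides EDA2R, EMP2 and MID1 it called ZC3H6, GDF15, STH, PNMA8B and NAP1L3 among the 14 higher genes and GPR63 among the 14 lower. In each of these 6 SKOV-3 went the other way. GDF15 went from 8.09 to 6.89 in SKOV-3, and the effects differed by 1.84 ± 0.24 (SE, limma adjusted p = 0.0106). NAP1L3 went from 5.98 to 3.88, with a difference of effects of 2.95 ± 0.33 (SE, limma adjusted p = 0.00704). GPR63 went from 4.94 to 6.19, with a difference of -1.88 ± 0.25 (SE, limma adjusted p = 0.0106). For ENC1, TEX19, TMEM80 and TMEM145 SKOV-3 differed in the shared direction, by 1.14, 0.81, -0.49 and -0.39.

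Genes that parted between the lines were fewer. At 1.5-fold 7 genes went in opposite ways, 0.0817% of those tested, against 22 that went alike. Of the 7, ZNF254 was higher in ES-2 and lower in OVCAR-3, and 6 were lower in ES-2 and higher in OVCAR-3: CCN3, KRT8, a long non-coding locus and 3 small Cajal body RNAs. At 1.25-fold 130 genes parted, 69 with ES-2 higher and 61 with OVCAR-3 higher. With 1 array per line and transfection the parting of a gene was not tested.

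CCN3, a secreted matricellular protein, had log2 signals of 7.01 and 6.06 in ES-2 and 3.56 and 4.65 in OVCAR-3, blank first. Its OVCAR-3 blank value lay below the array median of 4.19, so the size of the rise there is uncertain. KRT8, the keratin that pairs with keratin 18, was at 6.75 and 5.95 in ES-2 and at 5.29 and 6.0 in OVCAR-3, so the transfected arrays of the lines were at one level. LRRTM4, a synaptic leucine-rich repeat protein, went from 5.45 to 7.24 in OVCAR-3 and was at 4.17 and 3.60 in ES-2, at or below the array median. The ES-2 signals of this gene could not be told from background.

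ANKRD1, a nuclear ankyrin protein and a known YAP target, was at 11.09 and 10.19 in ES-2 and 4.59 and 5.16 in OVCAR-3. CDK6, a cyclin-dependent kinase of the G1 phase, was at 8.67 and 7.97 and at 4.81 and 5.35. SEL1L3, RASSF2 and CPM were also lower in ES-2, by -1.16, -0.73 and -0.79, and higher in OVCAR-3, by 0.56, 0.51 and 0.58.

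The largest parting in the other direction was ZNF254, a KRAB zinc finger gene, at 5.57 and 6.70 in ES-2 and 7.34 and 6.6 in OVCAR-3. Here too the lines ended at like levels. EGR4, an immediate early factor, was at 4.37 and 4.95 in ES-2 and 6.14 and 5.51 in OVCAR-3. KRCC1 was at 7.73 and 8.26 and at 5.88 and 5.19, and in SKOV-3 it went from 8.77 to 5.36. GALR2, a galanin receptor, SAMD4A, an RNA-binding repressor of translation, ARHGAP44, TMEM238 and TESC differed by 0.50 to 0.54 in ES-2 and by -0.56 to -0.84 in OVCAR-3.

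**Figure D4:**
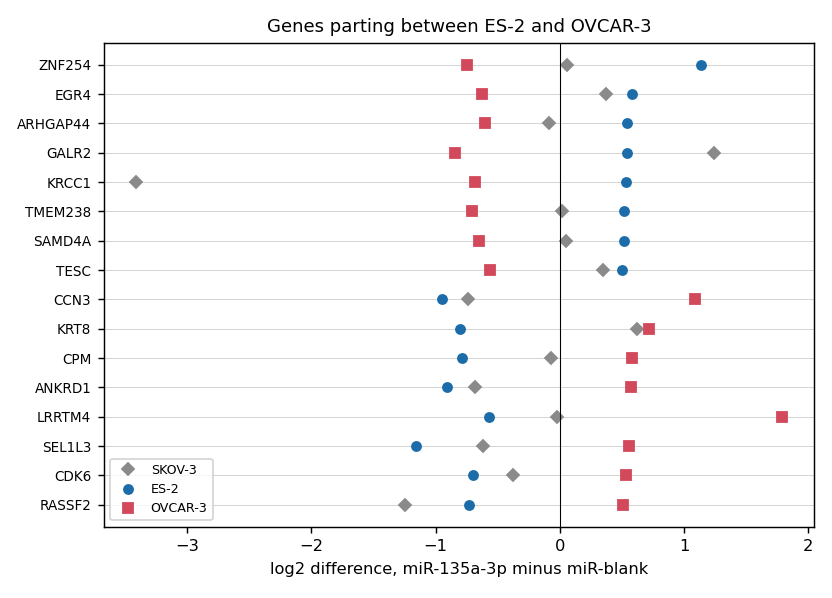
Log2 difference, miR-135a-3p minus miR-blank, by cell line for the 8 genes higher in ES-2 and lower in OVCAR-3 and the 8 the other way with the largest smaller difference. The signs of ES-2 and OVCAR-3 are set by the choice of the genes; SKOV-3 is spread over both sides, from -3.41 for KRCC1 to 1.24 for GALR2.

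Gene families with many small or near-identical members were looked at as groups, chosen after their values were seen. Of 20 small Cajal body RNAs, which guide the modification of spliceosomal RNAs, 15 were lower in ES-2, 17 were higher in OVCAR-3 and 15 were lower in SKOV-3. Their medians were -0.39, 0.35 and -0.34, against -0.01, -0.05 and 0.02 over all genes tested. Of the 20, 13 were lower in ES-2 and higher in OVCAR-3, as were 1597 of all 8573 genes. The 6 tested GAGE genes, cancer-testis antigens of the X chromosome, were all higher in the 3 lines. Their differences were 0.05 to 0.65 in ES-2, and larger in OVCAR-3, at 1.35 to 1.62, as well as SKOV-3, at 1.20 to 1.4. They share nearly all their sequence, so their probe sets cannot be read as separate genes. In ES-2 the GAGE signals lay between 4.32 and 4.97, near the array median.

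Among the pathway lists, mitosis genes were mostly higher in both lines or opposite, by small amounts. Of 29 tested genes of G2 and mitosis, 15 were higher in both lines, 2 lower in both and 12 opposite, and none passed the test. Over all genes 21.7% were higher in both and 32.4% lower in both. In the order ES-2, OVCAR-3, SKOV-3 the list's medians were 0.07, 0.10 and -0.04, against -0.01, -0.05 and 0.02 over all genes. The upward count was 12 to 20 of 29 under the other scalings. HMMR, a spindle-associated hyaluronan receptor, differed by 0.25 and 0.21, NEK2, a centrosome kinase, by 0.20 and 0.34, and MAD2L1, a spindle checkpoint protein, by 0.15 and 0.34, ES-2 first. Of 30 genes of G1/S and DNA replication, 3 were higher in both lines and 11 lower in both (8 and 10 after quantile normalization, 6 and 10 after cyclic loess), with MCM3, a subunit of the replicative helicase, at -0.25 and -0.27 and cyclin E1 (CCNE1) at -0.50 and -0.27.

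Splicing factors and ribosomal proteins had more members lower than higher in both lines. Of 29 hnRNP and SR factors, 2 were higher and 15 lower in both lines, and 7 and 13 after quantile normalization or cyclic loess. HNRNPA1 differed by -0.54 and -0.49 and HNRNPC by -0.26 and -0.56. Of 44 cytosolic ribosomal proteins, 4 were higher and 21 lower in both, and 10 and 17 after quantile normalization, with RPL29 at -0.53 and -0.51. The median of the mean difference over these lists was -0.06 and -0.05, against -0.03 over all genes, and stayed below 0 under each scaling tried. By line, ES-2 first, the medians were -0.06 and -0.12 for splicing factors and -0.11 and -0.04 for ribosomal proteins. Over all genes they were -0.01 and -0.05, so the ribosomal median was not below that of all genes in OVCAR-3. Of 300 ZNF genes, 39 were higher and 123 lower in both lines, with medians of -0.01 in ES-2 and -0.16 in OVCAR-3. The ES-2 median turned to 0.02 after a further quantile normalization.

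Growth factor response genes were taken as an immediate early list and an ERK feedback list. Of 21 immediate early genes, 6 were higher and 10 lower in both lines, with medians of -0.07 and -0.17 and of -0.79 in SKOV-3. MYC went from 9.79 to 9.43 in ES-2 and from 8.66 to 8.14 in OVCAR-3, and IER2 differed by -0.57 and -0.33. JUN was higher in both lines, by 0.32 and 0.81, and lower in SKOV-3, by -0.90. Of 14 ERK feedback genes, 0 were higher in both lines, 6 were lower in both and 8 were opposite, with medians of -0.20 and -0.30 and of 0.97 in SKOV-3. SPRY4, a relative of SPRY2, differed by -0.20 and -1.01 and by 1.02 in SKOV-3, and ETV4, an ETS factor that ERK induces, by -0.21, -0.43 and 1.57. The median of the mean difference was below 0 for both lists under each scaling tried.

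Of 20 HOX genes, homeobox factors of body position, 2 were higher and 9 lower in both lines, with medians of -0.23 and -0.14 and of 0.49 in SKOV-3. HOXC4 differed by -0.28 and -0.35 and by 1.62 in SKOV-3, and HOXC10 by -0.26, -0.42 and 0.52. Of 14 genes of the microRNA machinery, 1 was higher and 6 lower in both lines. TNRC6C, a partner of Argonaute in silencing, differed by -0.47 and -0.74 and by 0.80 in SKOV-3. DGCR8, the partner of Drosha in hairpin cutting, differed by -0.25, -0.67 and 0.27 in the same order. Of 16 p53 targets, 6 were higher in both lines, among them GDF15 and PLK2, and 6 lower in both, among them EDA2R, TRIAP1 and BAX.

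Other lists are given by their counts. Matrix glycoproteins had 9 of 20 higher and 4 lower in both lines, with the fibrillin gene FBN2 at 0.47 and 0.33. In OVCAR-3 the FBN2 signals, 3.37 and 3.71, lay below the array medians and could not be told from background. Metalloproteinases and their inhibitors had 2 of 20 higher and 8 lower, with MMP16 at -0.35 and -0.69. TEAD factors and YAP targets had 3 of 17 higher and 7 lower, with TEAD2 at -0.64 and -0.43. Of 13 redox genes 6 were higher and 3 lower, with TXNIP, a thioredoxin inhibitor, at 0.77 and 0.32. Interferon-stimulated genes had 4 of 16 higher and 4 lower, which became 2 and 6 with equal array medians. Cholesterol and fatty acid synthesis had 4 of 20 higher and 6 lower, a split that turned to 8 and 4 after quantile normalization and to 6 and 5 after cyclic loess. ER chaperones and ATF4 genes had 4 of 15 higher and 5 lower, which turned to 4 and 3 after quantile normalization. Hypoxia and glycolysis had 5 of 16 higher and 3 lower, BCL2 family and caspases 2 of 15 and 6, and Mullerian and ovarian lineage genes 6 of 14 and 2. Integrins and tetraspanins had 5 of 15 higher and 4 lower, Wnt and planar polarity 4 of 17 and 4, TGF-beta and BMP 2 of 11 and 3, and JAK-STAT 1 of 12 and 3. Lists with few tested genes were NF-kB and inflammatory genes with 3 of 9 higher and 2 lower, epithelial markers with 2 of 7 and 1, mesenchymal markers with 3 of 4 and 0, desmosome genes with 1 of 3 and 0, leukocyte markers with 0 of 2 and 1, and beta protocadherins with 0 of 2 and 0. Of all the lists only the receptor, GAS3/PMP22, midline ligase and p53 lists held a called gene, each through EDA2R, EMP2 or MID1.

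**Figure D5:**
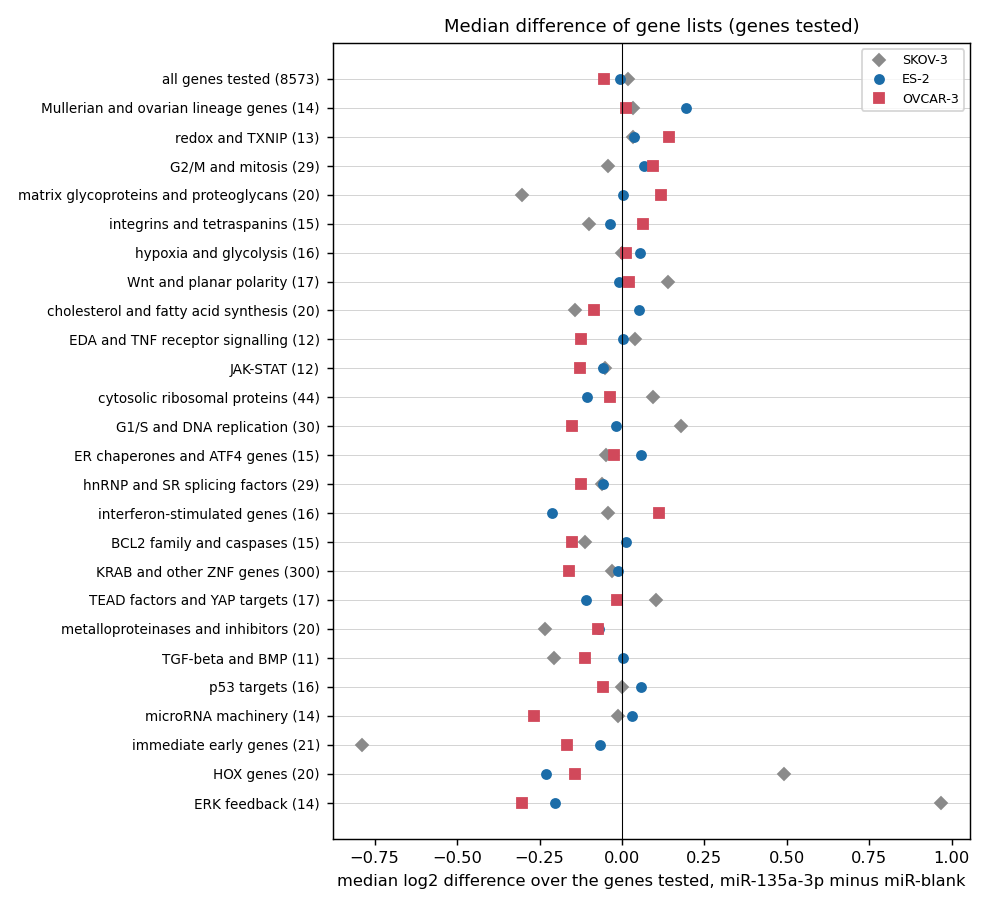
Median log2 difference, miR-135a-3p minus miR-blank, over the tested genes of the lists shown, each with at least 11 of them (number in brackets), by cell line, with all genes at the top. ES-2 and OVCAR-3 lie between -0.30 and 0.19 for each list shown, while SKOV-3 reaches -0.79 for immediate early genes and 0.97 for ERK feedback genes.

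Of 10406 unnamed probe sets past the filter, 0 were called by limma when all probe sets were tested together, and 958 had an unadjusted p under 0.05. In this set 26 were at least 1.5-fold higher in both lines, 88 lower in both and 56 opposite.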

How the data were processed

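The table deposited by the authors holds log2 signals for 6 Affymetrix arrays with 53617 probe sets each. The submitters' processing notes list RMA, Expression Console 1.4 and Transcriptome Analysis Console 3.0 without saying what each did. RMA equalises the arrays' distributions, so a shift of most genes one way would be removed. Gene names came from GEO's platform table, updated by Entrez identifier to RefSeq (GRCh38.p14). The fit was limma 3.58.1 in R 4.3.3 (lmFit, eBayes, two-sided, Benjamini-Hochberg), with 1 residual degree of freedom per gene, 7.39 prior degrees of freedom and a prior SD of 0.15. It was tested on simulated data, where it found most genes that had been changed and, at times, more unchanged genes than the threshold allows. The arrays of a line are paired because they come from 1 cell line. Members, gene lists and the rule for named genes were chosen with earlier results of these data known. That rule names all called genes, the 14 higher, 14 lower, 8 and 8 parting protein-coding genes with the largest smaller difference, families of called genes and up to 4 genes per list. Of 40 lists with 1384 genes, 791 genes passed the filter. No gene was tested of the collagen and laminin, histone, endothelial, erythroid and neuronal lists, and the result of 1 other list is not reported here. Alternatives were other filters, scalings, probe set rules and fits. The number of arrays limits the precision.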

Additional observations from a re-analysis of the deposited data

Results flagged for a closer look

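Genes that went opposite ways in ES-2 and OVCAR-3 are listed with the ES-2 difference minus the OVCAR-3 difference in log2 units. This gap was not tested, since each line had 1 array per transfection. Higher in ES-2 were ZNF254 (1.88), GALR2 (1.38), TMEM238 (1.23), KRCC1 (1.22), EGR4 (1.21), SAMD4A (1.17), ARHGAP44 (1.14) and TESC (1.06). Higher in OVCAR-3 were LRRTM4 (-2.36), CCN3 (-2.04), SEL1L3 (-1.72), KRT8 (-1.52), ANKRD1 (-1.48), CPM (-1.36), RASSF2 (-1.24) and CDK6 (-1.23). Signals of LRRTM4, CCN3, SEL1L3, RASSF2, SAMD4A and ARHGAP44 lay below the array median on at least 1 of the 4 arrays.

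Shared genes whose effect differed from that in SKOV-3 by the limma test are listed with the ES-2 and OVCAR-3 effect minus the SKOV-3 effect. SKOV-3 had 1 array per transfection and is assumed to vary like the other lines, and the genes were ranked by ES-2 and OVCAR-3 values that the test uses again. Lower were EDA2R (-1.86), MID1 (-1.83), EMP2 (-1.51) and GPR63 (-1.88). Higher were NAP1L3 (2.95), GDF15 (1.84), ZC3H6 (1.41), STH (1.37) and PNMA8B (1.20). EDA2R was near the array median in SKOV-3 before transfection, and the part of that level in the difference was not tested.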

How the results depend on the processing

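The count of called genes was 4 as reported. It was 7 when a mean of at least 6 was required (EMP2, KCTD12, MID1, MIR135A1 and 3 GAGE genes, with EDA2R filtered out), 1 over all probe sets (MIR135A1), and 3 after quantile normalization (MID1 lost). With no filter it was again 4, with MIR4306 in place of MID1. It was 0 without variance moderation (450 at an unadjusted p under 0.05) and 0 with no replicate block (14 at an unadjusted p under 0.05), where the spread between the lines enters the error. With signals under the array median set to it, an alternative chosen after seeing the data, it was 3 (MID1 lost). EDA2R was called in 9 of 12 alternatives, EMP2 in 10 of 13, MID1 in 7 of 13 and MIR135A1 in 11 of 13. These counts include a fit of all 6 arrays, which gives SKOV-3 its own effect and so could only repeat the main result. They also include averaging a gene's probe sets and choosing the brightest over 6 arrays. EDA2R, MID1 and MIR135A1 have 1 probe set each, so these rules left their values unchanged. The count of genes 1.5-fold alike was 22, and 64 with no filter, 11 with a mean of at least 6 and 4 at 2-fold. With signals under the array median set to it, 7 were higher and 13 lower in both lines, against 9 and 13 as reported. The count of genes 1.5-fold opposite was 7, and 43 with no filter, 4 with a mean of at least 6, 12 after quantile normalization, 12 after cyclic loess and 1 at 2-fold. With signals under the array median set to it, 5 genes in place of 6 were lower in ES-2 and higher in OVCAR-3. The count differing from SKOV-3 was 190, and 476 with a mean of at least 6, 340 with equal array medians, 335 with an intensity trend and 0 without variance moderation. None of the called, shared or parting genes named in the report changed the sign of its difference in the alternatives that kept it. A gene dropped by the filter of an alternative has no value there. For shared genes the sign with a line left out is set by their choice. Genes named only for a list or family were not rerun singly. Leaving out a line leaves 1 array per side and no test. The precision is limited by 2 arrays per side and, for genes near the array median, by background.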

Other observations

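A few single genes, chosen after their values were seen, had negative differences in ES-2 and OVCAR-3 and a positive one in SKOV-3. None passed the test over ES-2 and OVCAR-3 (limma adjusted p from 0.592 to 0.695). MYBBP1A, a nucleolar regulator of ribosomal RNA synthesis, went from 9.02 to 8.52 in ES-2, from 8.61 to 8.10 in OVCAR-3 and from 7.17 to 8.26 in SKOV-3. NOL6, a nucleolar protein of small-subunit assembly, differed by -0.49, -0.61 and 1.01 in that order, and the snoRNA host SNHG16 by -0.37, -0.37 and 1.10. DANCR, another snoRNA host, differed by -0.62, -0.59 and 1.07. Other snoRNA hosts varied. GAS5 and ZFAS1 had ES-2 and OVCAR-3 differences of 0.00 and 0.04 and of -0.23 and 0.01. SNHG5, SNHG8 and SNHG15 had differences of -0.34, -0.37 and -0.30 in ES-2 and of -0.02, 0.00 and -0.09 in OVCAR-3, and in SKOV-3 of 0.34, 1.49 and -0.03.

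Of the 13 genes at least 1.5-fold lower in both lines, 2 lie on the X chromosome (EDA2R and MID1), and of the 9 at least 1.5-fold higher 3 do (near-identical GAGE genes), against 2.99% of all genes tested.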
